A study of Mus musculus with 20 samples.

Results

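*Foxo1*, *Klf2*, *S1pr1*, *S1pr4*, *Ccr7*, *Cd69* and *Cd44* are 7 genes of T cell recirculation through lymph nodes. They were picked by symbol from the 17101 genes of an RNA-Seq table, and each of the 7 had enough reads to be tested in every comparison. The table holds 20 libraries of donor T cells sorted by flow cytometry from the spleens of irradiated B6D2F1 mice, on day 10 after transplantation of B6 marrow and T cells. KO donors carried *Dnmt3a* flanked by loxP sites and Cre driven by the *Cd4* promoter, which is active in thymic precursors of both CD4+ and CD8+ cells, and WT donors were littermates with intact *Dnmt3a*. Donors were 6 to 12 and recipients 8 to 12 weeks old. Each of 5 groups had 4 libraries, namely CD4+ and CD8+ cells of both genotypes and CD4+CD8+ (double-positive, DP) cells of the KO. WT DP cells are not analysed here. The KO labels carry the numbers 1 to 4 and the WT labels the numbers 2, 3, 5 and 6. These were read as animals within a genotype, which the labels do not state.

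In T cells, the transcription factor FOXO1 switches on *Klf2*, and KLF2 in turn drives *S1pr1*, the receptor with which lymphocytes follow sphingosine 1-phosphate (S1P) out of lymphoid organs. CCR7 brings T cells into lymph nodes. Signals through the antigen receptor and PI3K-AKT hold FOXO1 in the cytoplasm, and these transcripts then fall. CD69 appears on activated cells, binds S1PR1 and removes it from the surface, and CD44 is a hyaluronan receptor that marks antigen-experienced cells. DNMT3a places methyl groups on cytosines of CpG dinucleotides.

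The promoter windows of *Klf2* and *S1pr4* are shown because both genes rose in KO CD4+ cells while their windows differ widely in the number of CpG dinucleotides, the sites on which the deleted enzyme acts. Each window runs from 250 bases before to 50 bases after the start of transcription, from RefSeq for GRCm38.p6, and the capitals mark CpG. The *Klf2* window lies at chr8:72318812-72319111 on the plus strand and the *S1pr4* window at chr10:81500088-81500387 on the minus strand.
Klf2: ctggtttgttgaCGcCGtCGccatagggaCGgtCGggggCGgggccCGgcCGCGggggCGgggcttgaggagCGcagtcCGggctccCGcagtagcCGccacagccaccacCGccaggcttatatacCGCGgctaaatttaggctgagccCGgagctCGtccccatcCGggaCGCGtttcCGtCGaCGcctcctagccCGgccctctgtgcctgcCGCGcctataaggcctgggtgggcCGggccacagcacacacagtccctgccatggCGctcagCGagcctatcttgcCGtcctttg
S1pr4: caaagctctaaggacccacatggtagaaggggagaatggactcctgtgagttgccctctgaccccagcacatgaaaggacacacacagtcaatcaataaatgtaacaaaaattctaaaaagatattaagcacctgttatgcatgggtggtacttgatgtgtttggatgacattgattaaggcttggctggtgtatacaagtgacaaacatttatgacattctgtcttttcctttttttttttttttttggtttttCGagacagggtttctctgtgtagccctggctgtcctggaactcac
The *Klf2* window holds 32 CpG, more than 90.5% of 32851 windows, and the *S1pr4* window holds 1, more than 5.43% of them. The windows of *Foxo1* (31 CpG) and *Cd44* (6 CpG) were also in the table, where the median is 7. The FOXO motif GTAAACA, searched on both strands, was in none of these 4 windows and in 3.65% of all. The KLF motif GGGTG was found once each in the *Klf2* and *S1pr4* windows and in 57.5% of all. *S1pr1*, *Ccr7* and *Cd69* had no entry.

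The libraries held 37547651 to 46966318 reads on genes (median 44474370.5), and all values are counts normalized by the authors with DESeq2. *Dnmt3a*, the deleted gene, had 650 to 2007 normalized counts in the 12 KO libraries and 3542 to 5171 in the 8 WT libraries. *Cd4* was at 44800 to 74390 in CD4+ libraries of either genotype, at 9.89 to 458 in CD8+ libraries and at 8758 to 15350 in DP libraries, while *Cd8a* in DP libraries lay within 41590 to 68520. KO CD4+ replicate 1 stood apart from its label, with 3771 normalized counts of *Cd8a*, against at most 227 in the other KO CD4+ libraries. KO DP replicate 3 had reads on 11783 genes, against 13203 to 14677 in the other libraries. In that library *Rag1*, a gene of immature thymocytes, had 38.5 normalized counts, while it was at 0 in the other DP libraries and did not exceed 3.49 in any CD4+ or CD8+ library. The co-variation of the 7 genes and part of the values that rest on either library are also given without it, a choice made after the data were seen. The genes most like each member, the mean deviations of the animals and the list counts between subsets are given with all libraries only.

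Genotype came first, since the study asked how loss of *Dnmt3a* in donor T cells changes them. In CD4+ cells, *Klf2*, *S1pr1*, *S1pr4* and *Cd69* rose in the KO and *Foxo1*, *Ccr7* and *Cd44* did not pass the test. In CD8+ cells, *Foxo1*, *S1pr1*, *S1pr4* and *Cd44* rose, and *Klf2*, *Ccr7* and *Cd69* did not pass. *S1pr1* and *S1pr4* rose in both subsets, by 1.65 to 2.14 times. The threshold was an adjusted p of 0.05 over all genes in limma, on log2(normalized count + 1), and every fold change below is on that scale. In CD4+ cells 4 of 7 genes passed, all higher, against 18.4% of 12391 genes tested in either direction and 8.59% in the higher direction. In CD8+ cells 4 of 7 passed, all higher, against 25.2% of 12383 genes and 12.6% in the higher direction. The KO libraries lay above every WT library for 3 of the 7 genes in each subset, where 12.3% of all genes did so in CD4+ and 15.2% in CD8+ cells. The median log2 fold change of the 7 genes was 0.72 in CD4+ and 0.76 in CD8+ cells, and that of all genes was -0.05 and -0.04. In bulk RNA, more cells that express a gene and more RNA per cell cannot be told apart.

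**Figure D1:**
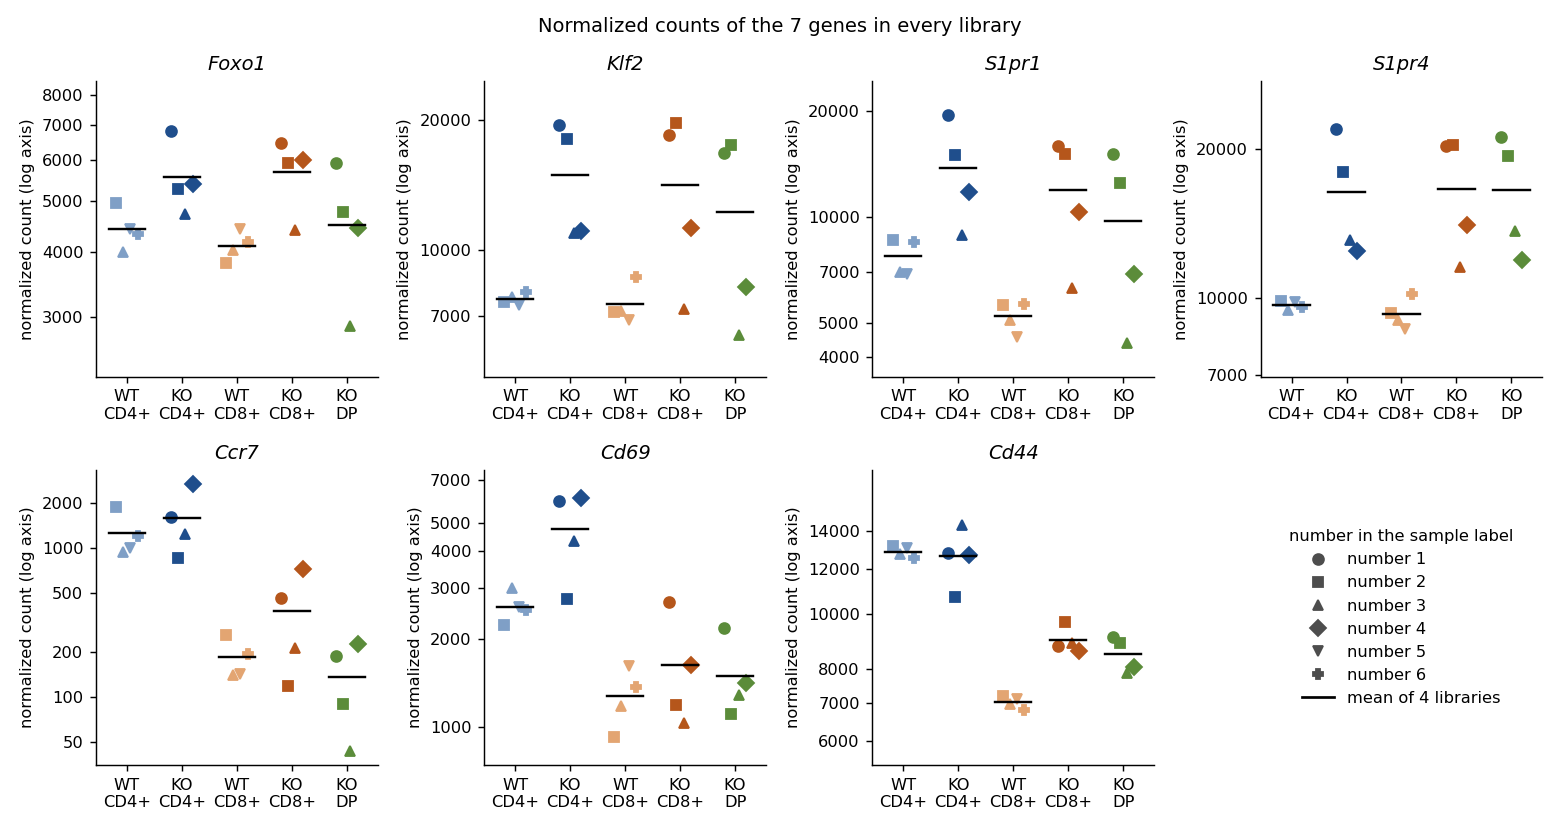
Normalized counts (log axis) of the 7 genes in each library, with WT and KO cells of each subset side by side, the marker shape giving the number in the sample label and the black line the mean of the 4 libraries of a group. The WT libraries lie close together for *Klf2* (7434 to 7988 in CD4+ cells) while KO libraries spread from 10954 to 19436, and *Ccr7* separates CD4+ from CD8+ and DP libraries.

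*Foxo1* encodes the factor at the head of this program and lies on chromosome 3 at 52268337 to 52350109. Its normalized counts in KO CD4+ cells were 6813, 5282, 4736 and 5403 in animals 1 to 4, against 4954, 3992, 4429 and 4318 in WT animals 2, 3, 5 and 6. In KO CD8+ cells they were 6471, 5929, 4407 and 6002, against 3809.5, 4031, 4419 and 4176. In both subsets KO animal 3 was the lowest of its group and lay inside the WT range, so that the groups overlapped. The KO exceeded the WT by 0.32 (SE 0.11) on the log2 scale in the CD4+ subset, with a limma adjusted p of 0.0698. The corresponding CD8+ value was 0.46 (SE 0.12) with an adjusted p of 0.0194, and a 2-sided exact permutation test gave p = 0.0571 in both. The CD8+ call was lost without KO replicate 4 (adjusted p = 0.0506), without WT replicate 2, 3 or 6 (0.0616, 0.0573 and 0.0526) or in a joint fit of the 20 libraries (0.0689), and the CD4+ difference passed without KO replicate 3 (0.0325) and with DESeq2 on all 8 libraries (0.0362).

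*Klf2*, the Krüppel-like factor that FOXO1 induces, lies on chromosome 8 at 72319062 to 72321654. KO CD4+ cells had 19436, 18102, 10954 and 11038 normalized counts in animals 1 to 4, and WT CD4+ cells had 7574, 7782, 7434 and 7988. Every KO library was above every WT library, and animals 1 and 2 stood well above animals 3 and 4. The fold was 1.87 (95% confidence interval 1.42 to 2.46, limma adjusted p = 0.0113). KO CD8+ cells had 18454, 19695, 7294 and 11197, and WT CD8+ cells had 7155, 7223, 6864 and 8659. Here animal 3 fell within the WT range, and the fold of 1.76 (1.15 to 2.71) missed the threshold at an adjusted p of 0.0566. With that library left out the difference was 1.10 on the log2 scale and passed (adjusted p = 0.00338), and it also passed with edgeR (0.0336) and DESeq2 (0.0024) on all 8 libraries. The CD4+ call held with each library left out in turn, at adjusted p values of 0.00481 to 0.0403, and was lost in the joint fit (0.073).

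*S1pr1*, on chromosome 3 at 115710433 to 115715055, encodes the exit receptor. Normalized counts in KO CD4+ cells were 19451, 14991, 8908 and 11758, against 8612, 6989.6, 6897 and 8500.4 in WT CD4+ cells. KO CD8+ cells had 15912, 15055, 6301 and 10338, against 5626, 5101, 4571 and 5665 in WT CD8+ cells. In neither subset did the groups overlap, although KO animal 3 came close to the highest WT CD4+ library. The fold was 1.72 (1.26 to 2.34, limma adjusted p = 0.0276) in CD4+ and 2.14 (1.44 to 3.19, adjusted p = 0.0147) in CD8+ cells. The CD8+ call held with any library left out, whereas the CD4+ call was lost without WT replicate 2, 3, 5 or 6 (adjusted p = 0.0517, 0.077, 0.0751 and 0.0654), without the trend (0.0693) and in the joint fit (0.132).

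*S1pr4*, which encodes a further S1P receptor of lymphocytes, lies on chromosome 10 at 81497745 to 81500137 in a single exon. The KO CD4+ libraries had 21998, 18003, 13120.3 and 12486 normalized counts and the WT CD4+ libraries 9880.5, 9477, 9842 and 9616. The KO CD8+ libraries had 20340.02, 20458, 11578 and 14074 and the WT CD8+ libraries 9345, 9022, 8679 and 10199. All KO libraries exceeded all WT libraries, and the WT CD4+ values stayed within 1.04 times of each other. The fold was 1.65 (1.29 to 2.10, limma adjusted p = 0.0157) in CD4+ and 1.74 (1.33 to 2.27, adjusted p = 0.0113) in CD8+ cells. The CD4+ call was lost without WT replicate 6 (adjusted p = 0.0541), and no single library ended the CD8+ call.

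*Ccr7*, on chromosome 11 at 99144199 to 99155077, encodes the receptor for chemokines of the lymph node T cell zone. Normalized counts in KO CD4+ cells were 1604, 846, 1236 and 2661, against 1879, 938, 994 and 1191 in WT. In CD8+ cells they were 457, 118, 214 and 725, against 258, 141, 142 and 195. The KO values reached both above and below the WT range in each subset. The log2 fold change was 0.27 in CD4+ (95% confidence interval -0.44 to 0.99, limma adjusted p = 0.558) and 0.76 in CD8+ cells (-0.37 to 1.89, adjusted p = 0.288), intervals that leave room for changes of either sign.

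*Cd69*, on chromosome 6 at 129267324 to 129275375, encodes the early activation antigen that pulls S1PR1 off the surface. In CD4+ cells its normalized counts were 5961, 2744, 4340.01 and 6084 in the KO, against 2235, 3000.4, 2569.9 and 2509 in WT. Animals 1, 3 and 4 were above every WT library and animal 2 was not. The log2 fold change was 0.83 (SE 0.22, limma adjusted p = 0.0305), and the exact permutation test gave p = 0.0571. In CD8+ cells, 2677, 1187, 1033 and 1633 in the KO overlapped with 923, 1183, 1618 and 1369 in WT (log2 fold change 0.29, adjusted p = 0.478). The CD4+ call was lost without KO replicate 1 or 4 (adjusted p = 0.0746 and 0.061) and without WT replicate 2, 3, 5 or 6 (0.0802, 0.0528, 0.0713 and 0.0857), without the trend (0.0736) and in the joint fit (0.0682).

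*Cd44*, the hyaluronan receptor, lies on chromosome 2 at 102811141 to 102901669. In CD8+ cells its normalized counts were 8810.2, 9702, 8917 and 8628 in the KO and 7193, 6949.97, 7108 and 6789 in WT, with no overlap. The fold was 1.29 (1.17 to 1.41, limma adjusted p = 0.00413), and the call held with each library left out. In CD4+ cells, 12803, 10706, 14327 and 12683 in the KO lay on both sides of 13155, 12736, 13051 and 12547 in WT (log2 fold change -0.03, 95% confidence interval -0.23 to 0.16, adjusted p = 0.792).

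**Figure D2:**
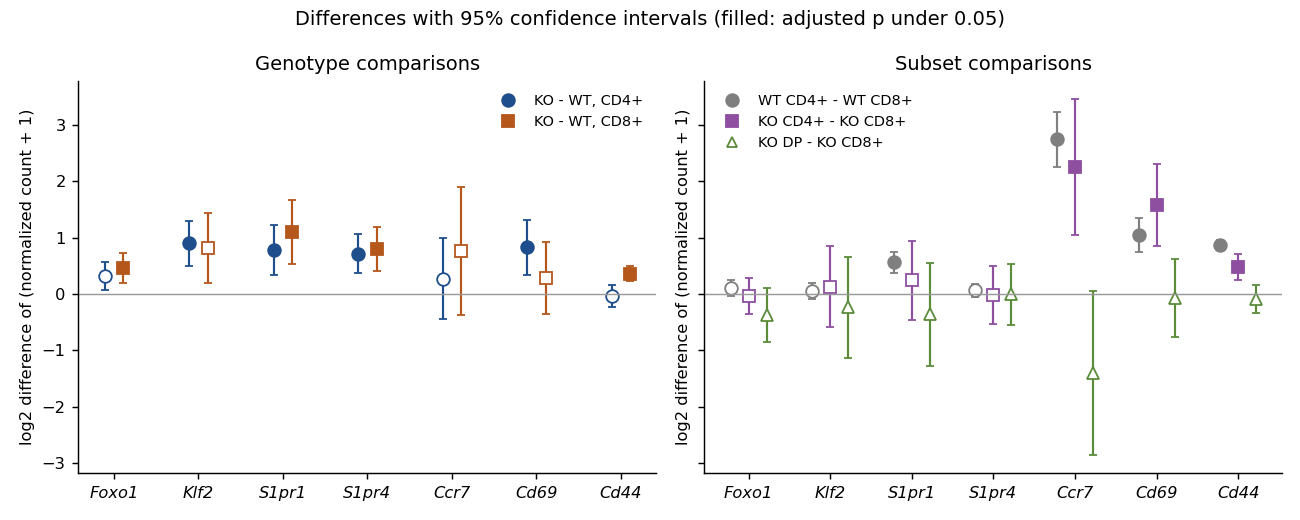
Log2 differences of the 7 genes between genotypes (left) and between subsets (right), with 95% confidence intervals and filled markers where the limma adjusted p was under 0.05. *S1pr1* and *S1pr4* are filled for both genotype comparisons, and for *Ccr7* the difference of CD4+ minus CD8+ cells is filled in both genotypes (2.75 in WT, 2.26 in KO).

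Whether the genotype effect differed between subsets was tested as an interaction over 16 libraries. None of the 7 genes passed, against 0.0161% of 12446 genes. The unadjusted limma p was under 0.05 for 793 of the 12446 genes and for 1 gene of the 7. That gene was *Cd44*, for which the log2 fold change between KO and WT differed by -0.40 in CD4+ against CD8+ cells (SE 0.10, unadjusted p = 0.00143, limma adjusted p = 0.448). With the animal as a block its adjusted p was 0.0748. For *Cd69* the difference of the log2 fold changes was 0.54 (SE 0.40) in the opposite direction, and for *Klf2* it was 0.08 (SE 0.36). The rise of *Cd69* in CD4+ cells and those of *Foxo1* and *Cd44* in CD8+ cells were thus not shown to be particular to those subsets.

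Other transcripts moved with the genotype across the same libraries. Of 14 heat shock and immediate early genes, 10 fell in KO cells of each subset and none rose, against 9.77% of all genes lower in CD4+ and 12.5% lower in CD8+ cells. Their median difference between KO and WT was -1.35 in CD4+ and -1.71 in CD8+ cells on the log2 scale. *Hspa1a*, an inducible heat shock gene, ranged from 13.2 to 82.1 normalized counts over KO CD4+ libraries and from 2221 to 10880 over WT CD4+ libraries, and *Fos*, an immediate early gene, from 258 to 751 and from 2706 to 6080. *Hspa1b*, a near-identical copy of *Hspa1a* with which it may share reads, fell by 7.08 on the log2 scale in CD4+ cells, and *Fosb* fell by 4.30. The summed level of the 14 genes was 132900 to 176300 in KO and 175200 to 208200 in WT CD4+ libraries. Their part in the results for the 7 genes was not tested.

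Markers of other cell types were also measured. The 6 endothelial markers summed to 5736 to 8557 in KO and 3678 to 5078 in WT CD4+ libraries, and to 2839 to 4942 and 2367 to 2576 in CD8+ libraries. Nearly all of this was *Pecam1*, which T cells also express, while *Kdr* and *Tek* were at 0 in the KO CD4+ libraries and *Cdh5* reached at most 16.7. The 7 measured B cell markers summed to 1650 to 2151 in KO and 1255 to 1681 in WT CD4+ libraries, and to 1684 to 2749 and 411 to 535 in CD8+ libraries. *Cd79b* was at 147 to 245 normalized counts in WT and at 1413 to 2245 in KO CD8+ libraries, whereas *Ms4a1* did not exceed 4.39 in any library. The 5 neutrophil markers had overlapping sums, with a median of 221 (5.89 to 2146) in KO and 1875 (1226 to 2011) in WT CD4+ cells, and of 237 (6.18 to 1401) and 1379 (1143 to 2540) in CD8+ cells. The 7 monocyte and macrophage markers summed to 1155 to 1679 in KO and 1691 to 2320 in WT CD4+ libraries and overlapped in CD8+ libraries (2449 to 6135 and 2729 to 4217). For the 4 NK cell markers the sums overlapped both in CD4+ (612 to 1824 and 828 to 1580) and in CD8+ libraries (2589 to 5168 and 4687 to 5909), with *Ncr1* at or near 0. Single NK cell markers moved in opposite directions within these sums. In both subsets the mean of *Klrb1c* was higher and that of *Eomes* lower in KO than in WT cells. The mean of *Klrc2* was higher in KO CD4+ and lower in KO CD8+ cells than in their WT counterparts. The sums of the 5 dendritic cell markers, mostly *Itgax*, also overlapped in both subsets. They were 824 to 2270 in KO and 1371 to 1681 in WT CD4+ libraries, and 4705 to 11820 and 6816 to 10130 in CD8+ libraries. These sums hide the less abundant markers. The means of *Flt3*, *Xcr1*, *Zbtb46* and *Clec9a* were each lower in KO than in WT cells of both subsets. The mean of *Itgax* was higher in KO than in WT CD4+ cells and slightly lower in KO than in WT CD8+ cells. The part of these markers in the results for the 7 genes was not tested. Without KO CD4+ replicate 1, the library with *Cd8a* reads, the CD4+ log2 fold changes were 0.76 for *Klf2*, 0.59 for *S1pr1*, 0.56 for *S1pr4* and 0.70 for *Cd69*, with limma adjusted p values of 0.0223, 0.0491, 0.022 and 0.0746.

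For 6 of the 7 genes, all but *Cd44*, the means of the KO animals spread more widely than those of the WT animals, a difference that was not tested. For *Klf2*, the log2 SD of the KO libraries was 0.45 for CD4+, 0.67 for CD8+ and 0.74 for DP cells, against 0.05 and 0.15 for the WT CD4+ and CD8+ libraries. For genes with a mean over 1000, the median SD was 0.17, 0.18 and 0.29 in the KO groups and 0.09 and 0.07 in the WT groups. For *Klf2*, *S1pr1* and *S1pr4*, animals 1 and 2 were above and animals 3 and 4 below the group mean in each of the 3 KO subsets. The mean deviation of *Klf2* was 0.51 and 0.52 in animals 1 and 2 and -0.68 and -0.35 in animals 3 and 4, on the log2 scale. The intraclass correlation across the 3 subsets, which is high where an animal keeps its deviation in every subset, was 0.91 for each of these 3 genes. Without KO CD4+ replicate 1 and KO DP replicate 3 it was 0.73 for *Klf2*, 0.67 for *S1pr1* and 0.76 for *S1pr4*. *Foxo1* (0.78, and 0.49 without those 2 libraries) had animal 1 on top and animal 3 at the bottom of all 3 subsets. In the values without those 2 libraries, deviations were taken from the means of the remaining libraries. The CD4+ mean then lacked animal 1 and the DP mean animal 3, so the centring changed as well as the libraries, and the 2 effects were not separated.

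*Ccr7* and *Cd69* ordered the animals differently. Animal 4 was the highest for *Ccr7* in all 3 subsets, with a mean deviation of 1.04, followed by animal 1 with 0.49, and animals 2 and 3 lay below the group mean throughout. For *Cd69*, animal 1 was above the mean in all 3 subsets (mean deviation 0.60) and animals 2 and 3 below. *Cd44* showed no such order, with animal means within 0.07 of each other in the KO, and an intraclass correlation of -0.38. Among WT animals the range of the means was 0.22 for *Klf2*, 0.31 for *S1pr1*, 0.10 for *S1pr4* and 0.93 for *Ccr7*, where animal 2 was the highest in both subsets.

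**Figure D3:**
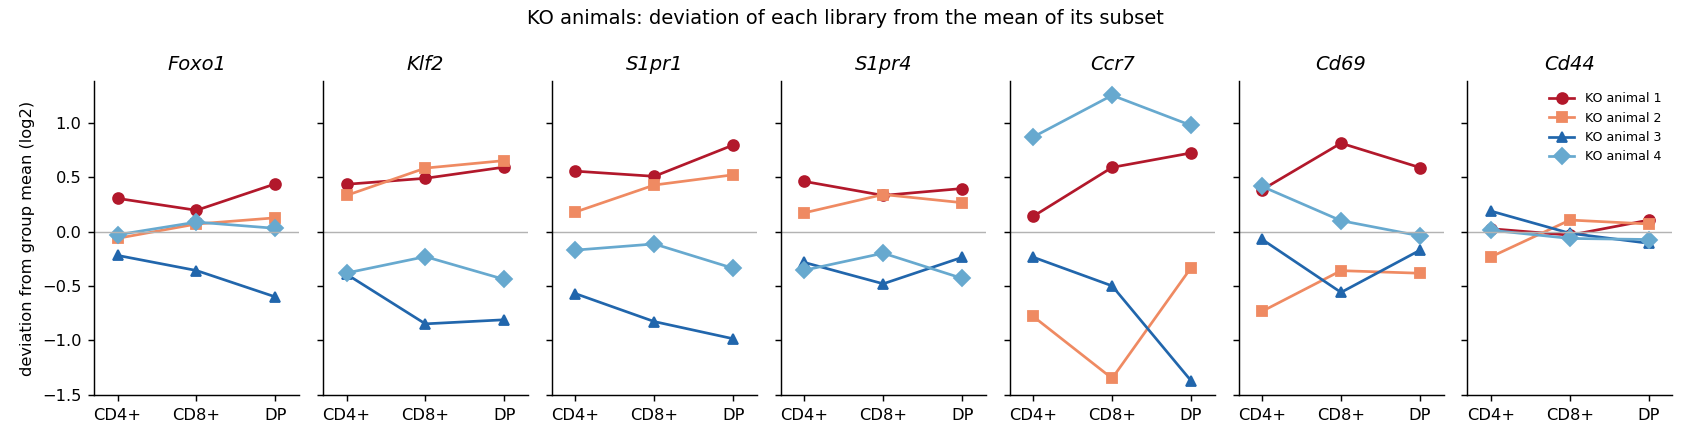
Deviation of each KO library from the mean of its subset (log2 scale), with a line for each of the 4 KO animals across CD4+, CD8+ and DP cells. Animals 1 and 2 lie above and animals 3 and 4 below zero in every subset for *Klf2*, *S1pr1* and *S1pr4*, and animal 4 is the highest for *Ccr7*.

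*Klf2*, *S1pr1* and *S1pr4* varied together. Over the 20 libraries, Pearson's r with *Klf2* was 0.94 for *S1pr1*, 0.92 for *S1pr4*, 0.81 for *Foxo1*, 0.32 for *Cd69*, 0.20 for *Cd44* and 0.10 for *Ccr7*. These points share animals, genotypes and size factors, and are given as a description. After group means were removed, r between *Klf2* and *S1pr1* was 0.97 over the 12 KO libraries and 0.50 over the 8 WT libraries, and that between *Klf2* and *S1pr4* was 0.94 and 0.82. Between *Foxo1* and *Klf2* it was 0.81 in the KO and -0.11 in the WT. *Ccr7* and *Klf2* had an r of 0.02 over the KO and 0.15 over the WT libraries on the same measure, while *Ccr7* and *Cd69* had 0.66 and, with the opposite sign, -0.73. Without KO CD4+ replicate 1 and KO DP replicate 3, r over the other 10 KO libraries was 0.96 for *Klf2* with *S1pr1*, 0.99 with *S1pr4*, 0.73 with *Foxo1* and -0.37 with *Ccr7*, and 0.72 for *Ccr7* with *Cd69*.

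**Figure D4:**
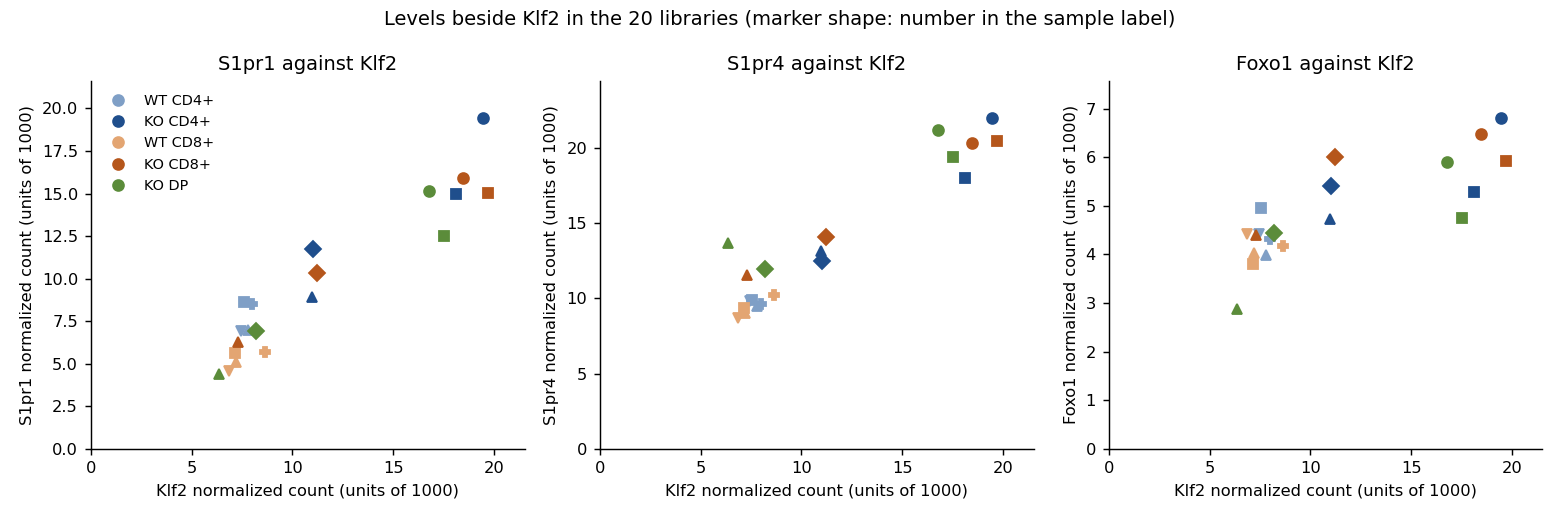
Normalized counts (units of 1000) of *S1pr1*, *S1pr4* and *Foxo1* against *Klf2* in the 20 libraries, coloured by group, with the marker shape giving the number in the sample label. KO animals 1 and 2 lie at the upper right for *S1pr1* and *S1pr4* in all 3 subsets, and KO animal 3 lies beside the WT libraries for CD8+ cells.

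Among 10034 genes with a mean of at least 100, the 3 most like each member over the 20 libraries were ranked by Pearson's r. They were *Prkcq* (0.97), *Stk38* (0.96) and *Ngly1* (0.95) for *Klf2*, *Arl4c* (0.98), *B4galt1* (0.97) and *Bcl2* (0.96) for *S1pr1*, and *Atp1b3* (0.98), *Cdc42se1* (0.96) and *Prkcq* (0.96) for *S1pr4*. For *Foxo1* they were *Fam168b*, *Plcl2* and *Epb4.1* (0.95 to 0.96), for *Ccr7* *Ski*, *Il6ra* and *Ctdsp2* (0.94 to 0.95), for *Cd69* *Fbxl17*, *Rnf139* and *Gpbp1l1* (0.92 to 0.94), and for *Cd44* *Maf*, *Il12rb2* and *Ccnd2* (0.94). After group means were removed, *Klf2* with *Stk38* kept an r of 0.98 and *Cd44* with *Maf* had 0.40.

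Subsets were compared within a genotype to place the DP cells. Between WT CD4+ and WT CD8+ cells, *Ccr7*, *S1pr1*, *Cd69* and *Cd44* were higher in CD4+ cells, 4 of 7 genes against 44.5% of 12559 genes in either direction and 22.3% in that direction. The largest difference was that of *Ccr7*, 6.71 times (4.80 to 9.40, limma adjusted p = 5.1e-07), followed by *Cd69* at 2.06 times (1.67 to 2.53, adjusted p = 4.7e-05), *Cd44* at 1.84 times (1.73 to 1.95, adjusted p = 2.5e-09) and *S1pr1* at 1.48 times (1.30 to 1.68, adjusted p = 0.00014), a call that the joint fit did not make (0.319). None of these 4 overlapped between the subsets, and each was higher in CD4+ cells of 4 of 4 animals. The shares of all genes without overlap, or with the same direction in 4 of 4 animals, were not counted between subsets. The WT difference of *Cd44* was nearly constant over animals, at 0.88 ± 0.00656 (SD, n = 4) on the log2 scale. *Klf2*, *Foxo1* and *S1pr4* overlapped, with log2 differences of 0.05, 0.10 and 0.06.

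Between KO CD4+ and KO CD8+ cells, *Ccr7*, *Cd69* and *Cd44* were higher in CD4+ cells, 3 of 7 genes against 4.22% of 12189 in either direction and 2.73% in that direction. *Ccr7* was 4.79 times (2.08 to 11.0, limma adjusted p = 0.0478), *Cd69* 2.99 times (1.81 to 4.97, adjusted p = 0.0276) and *Cd44* 1.40 times higher (1.20 to 1.63, adjusted p = 0.0285), each in 4 of 4 animals and without overlap. How many of all genes did so was not counted. With the animal as a block the same 3 genes passed, at adjusted p values of 5.7e-05, 0.000136 and 0.00432, and the count over all genes went from 514 to 2305. Without animal 3 none of them passed (adjusted p = 0.216, 0.144 and 0.162), nor without the trend (0.117, 0.0774 and 0.0753), and edgeR did not call *Ccr7* (0.0736). With single libraries left out, *Ccr7* passed without KO CD4+ replicate 2 or KO CD8+ replicate 4, *Cd69* without KO CD4+ replicate 2 or KO CD8+ replicate 1, and *Cd44* without KO CD4+ replicate 2. The other left-out libraries gave adjusted p values of 0.058 to 0.136 for *Ccr7*, 0.0581 to 0.0849 for *Cd69* and 0.0514 to 0.0892 for *Cd44*. *S1pr1*, which separated the subsets in WT, had a log2 difference of 0.24 (-0.46 to 0.94) in the KO.

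DP cells were set beside KO CD8+ cells, and none of the 7 genes passed the test, where 1 of 12153 genes did (0.00823%). The unadjusted limma p was under 0.05 for 237 of the 12153 genes and for none of the 7. *Foxo1* had 5912, 4760.1, 2875 and 4452 normalized counts in DP cells of animals 1 to 4, *Klf2* 16783, 17496, 6340.1 and 8202, and *S1pr1* 15134, 12517, 4400.1 and 6898. For each of these 3 genes the DP library was below the CD8+ library of the same animal in 4 of 4 animals, by 0.37 ± 0.20, 0.24 ± 0.14 and 0.36 ± 0.24 (SD, n = 4) on the log2 scale. How many of all genes did so was not counted. *Klf2* and *S1pr1* varied together over the KO libraries (r = 0.97 after group means were removed) and are not separate observations. *Ccr7*, with 189, 90.2, 43.4 and 225, was lower in 4 of 4 animals as well, by 1.40 ± 0.79. With the animal as a block, the limma adjusted p of each of these 4 genes was 0.405. Without KO DP replicate 3, the library with *Rag1* reads, the log2 differences between DP and CD8+ groups were -0.17 for *Foxo1*, 0.03 for *Klf2*, -0.03 for *S1pr1* and -0.95 for *Ccr7*, each with an adjusted p of 0.9999. That unpaired fit kept the CD8+ library of animal 3. With animal 3 left out of both groups the differences were -0.29, -0.25, -0.31 and -1.11 for these genes, again with limma adjusted p values of 0.9999. *S1pr4*, with 21207, 19378, 13672 and 11963, was higher than in CD8+ cells in 2 of 4 animals, and its log2 difference was -0.00 (95% confidence interval -0.55 to 0.54). *Cd44* and *Cd69* were lower in 3 of 4 animals. The intervals of *Klf2* (-1.13 to 0.66) and *Cd69* (-0.76 to 0.62) also hold differences of either sign.

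DP cells and KO CD4+ cells differed in *Ccr7* and *Cd69*, both lower in DP cells, 2 of 7 genes against 1.95% of 12175 in either direction and 1.26% in that direction. *Ccr7* in DP cells was 0.079 times its CD4+ level (0.0353 to 0.177, limma adjusted p = 0.00848), and the call held with each library left out. *Cd69* had 2179, 1110.3, 1286 and 1409 normalized counts in DP cells, 0.318 times its CD4+ level (0.206 to 0.491, adjusted p = 0.0196). Both were lower in 4 of 4 animals, with no overlap between the groups, and so was *Cd44*. How many of all genes did so was not counted. *Cd44*, with 9134, 8910.1, 7878 and 8070.1, was 0.675 times its CD4+ level and missed the threshold (adjusted p = 0.0534), but passed with the animal as a block (0.0379), a fit in which the count over all genes went from 237 to 860. *Cd69* did not pass without KO animal 3 (0.0982) or the trend (0.0655), nor without KO CD4+ replicate 1, 3 or 4 or KO DP replicate 2 (0.0639, 0.0644, 0.0678 and 0.0569). The 6 comparisons share groups of libraries and are not independent of each other.

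Across the 5 groups, the order of the mean levels put the KO groups first for *Klf2*, *S1pr1* and *S1pr4*. For *S1pr4* the 3 KO groups (16402 to 16612) overlapped with each other and lay clear of the WT groups (9704 and 9311). For *Klf2* the order was KO CD4+, KO CD8+, KO DP, WT CD4+ and WT CD8+, and every neighbour in it overlapped. For *S1pr1* the order was the same, and of its neighbours only WT CD4+ and WT CD8+ did not overlap. For *Foxo1* it was KO CD8+, KO CD4+, KO DP, WT CD4+ and WT CD8+, with overlap at every step. *Ccr7* and *Cd69* had KO CD4+ and then WT CD4+ first, with a gap to the next group for *Ccr7* and overlap throughout for *Cd69*. *Cd44* had WT CD4+ and KO CD4+ first, then KO CD8+ and KO DP, and WT CD8+ last, with overlap within each of these pairs and none between them. Per kilobase of exon, the mean levels in WT CD4+ cells were 4237 normalized counts for *Klf2*, 4055 for *S1pr4*, 2559 for *S1pr1*, 2277 for *Cd44*, 1591 for *Cd69*, 797 for *Foxo1* and 633 for *Ccr7*, so that *Ccr7* was the lowest of the 7 in these cells.

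Further genes of the pathway were taken from lists. Most lists also hold some of the 7 members, whose own changes are then counted again. The lists are given as counts past the threshold of the same fits, to be read against the 8.59% of all genes that rose and 9.77% that fell in CD4+ cells, and the 12.6% and 12.5% in CD8+ cells. Without KO CD4+ replicate 1, 4.71% of all genes rose and 6.17% fell in CD4+ cells. In that fit, of the FOXO1 targets 4 rose and *Gadd45a*, a stress-response gene, fell by 1.08 (limma adjusted p = 0.0476). Of the genes known to follow KLF2, *S1pr1* and *S1pr4* rose and *S1pr5*, a further S1P receptor, fell by 4.09 (adjusted p = 0.0425). *S1pr5* was near the floor there, with 0 to 13.75 normalized counts in KO CD4+ libraries other than replicate 1 and 16.5 to 112 in WT CD4+ libraries. The count of risen genes went from 3 to 1 for lymph node entry, from 5 to 2 for PI3K-AKT and from 7 to 6 for naive and central memory markers, and that of fallen genes from 10 to 9 for heat shock and immediate early genes, from 4 to 1 for tissue residency and from 3 to 1 for activation markers. The counts that follow are over all 8 libraries of a subset. Of 18 genes known as FOXO1 targets, 6 rose in KO CD4+ and 5 in KO CD8+ cells and none fell, with median log2 fold changes of 0.19 and 0.22. *Klf2* and *S1pr1* are among the 6, and *S1pr1* among the 5. *Pik3ip1*, an inhibitor of PI3K, rose by 1.42 (SE 0.33) and 1.88 (SE 0.35) on the log2 scale, *Il7r*, the interleukin-7 receptor, by 1.20 (SE 0.23) and 1.66 (SE 0.39), and *Lef1*, a factor of naive T cells, by 0.80 (SE 0.14) and 1.16 (SE 0.21). *Fbxo32*, a ubiquitin ligase subunit and classic FOXO target, rose in CD8+ cells (0.90, adjusted p = 0.0333). *Foxo3* rose in CD8+ cells (0.53, adjusted p = 0.0304) and not past the threshold in CD4+ cells (0.21, adjusted p = 0.347).

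Of 6 genes known to follow KLF2, 4 rose in CD4+ and 3 in CD8+ cells and none fell (median log2 fold changes 0.63 and 0.72). Beside *S1pr1* and *S1pr4* these included *Itgb7*, an integrin subunit of gut homing, with log2 fold changes of 0.54 and 0.65. *S1pr5* had values of -2.80 and -0.59, with limma adjusted p values of 0.162 and 0.57. In the KLF family, 3 of 11 genes rose in CD4+ cells, *Klf2* among them, while 1 rose and 3 fell in CD8+ cells (medians 0.12 and 0.27). *Klf13* rose in both subsets (0.91 and 1.09) and *Klf11* in CD4+ cells (0.88, adjusted p = 0.0494), whereas *Klf4*, *Klf6* and *Klf10* fell in CD8+ cells by 1.51, 0.33 and 0.44 on the log2 scale. *Klf3* passed in neither (0.54 and 0.84, adjusted p = 0.203 in both).

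Among S1P receptors, enzymes and transporters, 3 of 16 tested rose and 2 fell in CD4+ cells, and 3 of 15 rose and 3 fell in CD8+ cells (medians 0.01 and -0.26). *S1pr1* and *S1pr4* are among the 3 that rose in each subset. *Sgpp1*, an S1P phosphatase, rose by 0.42 and 0.28, and *Cers4*, a ceramide synthase, fell by 0.55 in CD8+ cells. *Sphk1*, a kinase that makes S1P, fell in CD4+ cells from a mean of 74.5 normalized counts to 9.66, and *Sgpp2*, a further phosphatase, fell in CD8+ cells from 78.5 to 16.9. *Mfsd2b*, an S1P exporter, fell in both, from 62.8 to 30.0 and from 55.2 to 24.6. *Spns2*, which releases S1P from endothelium, did not exceed 15.4 in any library and was not tested.

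Of 12 genes of lymph node entry, 3 rose in each subset and none fell (medians 0.06 and 0.55). *Itgb7* and *Itga6*, an integrin subunit, rose in both (*Itga6* by 0.59 and 0.77), and the chemokine receptor gene *Cxcr4* rose in CD8+ cells (1.03, limma adjusted p = 0.00563). Of 18 genes of chemotaxis signalling, 4 rose in CD4+ and 9 in CD8+ cells and none fell (medians 0.25 and 0.31), among them *Stk4*, a kinase of integrin activation (0.33 and 0.52), and *Rac1*, a GTPase of the cytoskeleton (0.40 and 0.35). *Gnai3* and *Rap1b* rose in CD8+ cells (0.37 and 0.43) and had adjusted p values of 0.0582 and 0.051 in CD4+ cells. In the PI3K-AKT list, 5 of 20 genes rose in CD4+ and 6 in CD8+ cells and none fell (medians 0.05 and 0.18). *Pik3r1*, a regulatory subunit of PI3K, rose by 0.60 and 0.73, and *Rptor*, a subunit of mTORC1, by 0.59 in CD8+ cells. Among 16 partners of FOXO proteins, none rose and 1 fell in CD4+ cells, while 3 rose and 3 fell in CD8+ cells (medians -0.02 and -0.01). *Set* fell in both (by 0.82 and 0.97), and *Usp7*, *Ep300* and *Crebbp* rose in CD8+ cells (0.24, 0.26 and 0.44).

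Naive and central memory markers rose in 7 of 16 cases in CD4+ and 5 of 16 in CD8+ cells and none fell (medians 0.58 and 0.79), with *Satb1*, a chromatin organizer, at 0.85 and 0.92, and *Ly6c2* at 0.63 in CD4+ cells. *Klf2* and *S1pr1* are among the 7, and *S1pr1* is among the 5. Of 12 activation markers, 1 rose and 3 fell in CD4+ cells, and 1 rose and 4 fell in CD8+ cells (medians -0.20 and -0.37). The ones that rose were *Cd69* and *Cd44*, and those that fell included *Cd38* (by 1.02 and 0.95) and *Nr4a1*, an immediate early gene of antigen receptor signalling (by 0.80 and 1.42), with *Tfrc* in CD4+ cells (by 0.61) and *Tnfrsf9* in CD8+ cells (by 0.76). Of 12 tissue residency genes tested, 4 fell in CD4+ and 5 in CD8+ cells and 1 rose in each, *Cd69* and the integrin gene *Itga1* (0.36), with medians of -0.38 and -0.43. *Rgs1*, a brake on chemoattractant receptors, fell by 1.40 and 1.97, *Bhlhe40* by 0.41 and 0.39, and *Rgs2* by 1.22 in CD8+ cells. In the list of CD44 with its ligands and partners, 1 of 8 rose and 1 fell in CD4+ cells. In CD8+ cells 2 of 9 rose, *Cd44* itself among them, and 1 fell (medians -0.28 in CD4+ and -0.50 in CD8+ cells). *Ezr*, a linker to the cytoskeleton, rose in both (0.48 and 0.46), *Mmp9* fell by 2.31 in CD4+ and *Spp1* by 1.61 in CD8+ cells. These lists overlap in part, and *Nr4a1* is also among the immediate early genes above.

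**Figure D5:**
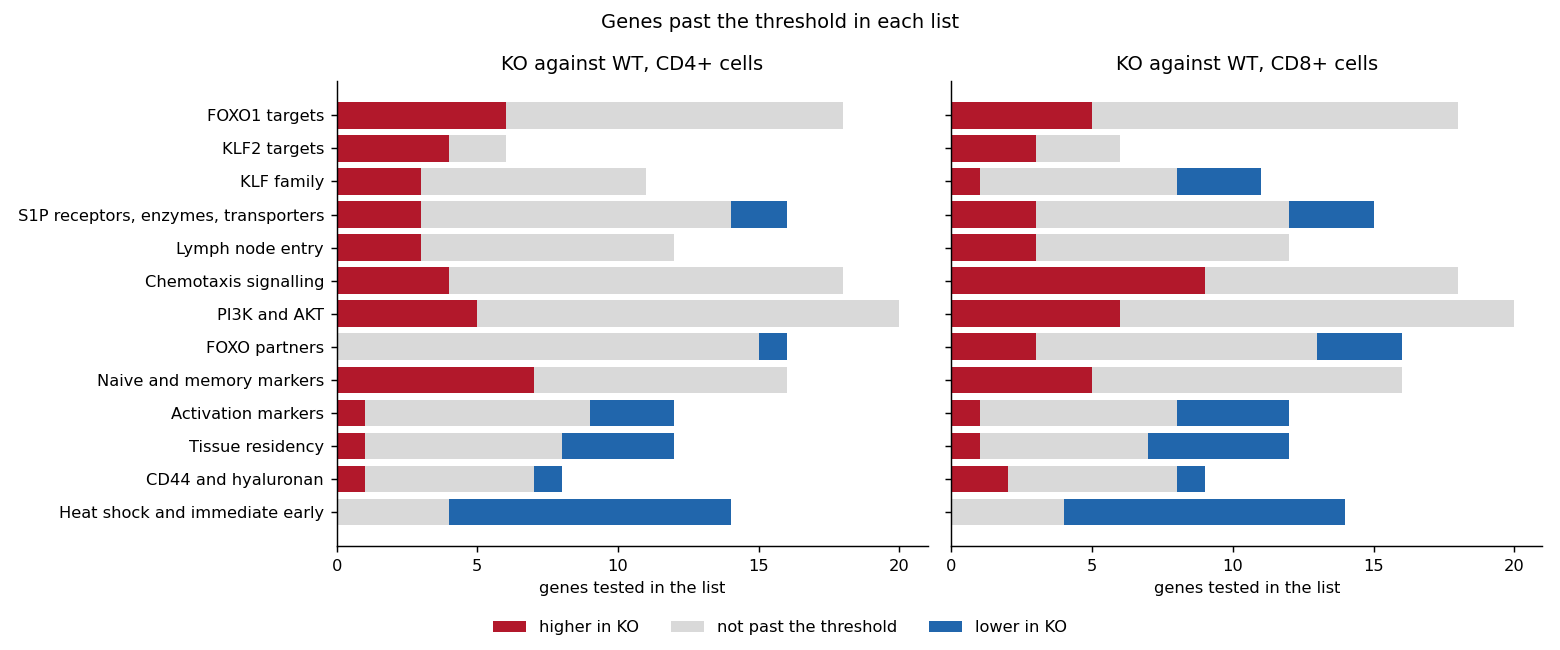
Number of genes in each list that were higher in KO (red), did not pass the threshold (grey) or were lower in KO (blue), for CD4+ cells on the left and CD8+ cells on the right. In both panels the FOXO1 and KLF2 target lists hold no gene that was lower in KO, and the list of heat shock and immediate early genes holds 10 of 14 that were lower.

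The same lists were read in the subset comparisons. Between DP and KO CD8+ cells no gene of any list passed the threshold. Between DP and KO CD4+ cells, 4 of 18 FOXO1 targets were lower in DP cells and none higher, namely *Il7r*, *Ccr7*, *Btla* and *Tcf7*, where 1.26% of all genes were lower, with a median log2 difference of -0.77 against -0.01 over all genes. Of the 12 genes of lymph node entry, 3 were lower in DP cells, namely *Ccr7*, *Cxcr5* and *Gpr183*. Between WT CD4+ and CD8+ cells, 12 of 18 FOXO1 targets were higher in CD4+ cells and 1 lower, and between KO CD4+ and CD8+ cells 4 were higher and 1 lower. Over all genes the calls numbered 5592 in the WT (22.3% of genes higher in CD4+ cells) and 514 in the KO (2.73%). The 4 higher genes in the KO were *Ccr7*, *Btla*, *Tcf7* and *Sesn3*, and the lower gene in both genotypes was *Bcl2l11*.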

How the data were processed

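RNA was measured in 20 libraries of sorted splenic T cells, whose labels give the genotype, the subset and a number. The labels do not say what the number stands for, and it was read as the animal within a genotype. The authors aligned strand-specific poly(A) reads to mm10 (GRCm38) with STAR (2.7.2b in the processing notes) and counted read pairs by strand over UCSC exons. They deposited counts normalized with DESeq2, a signal per gene. Undoing each library's size factor returned whole reads for 100% of values (within 0.01).

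The test was limma 3.58.1 (R 4.3.3, lmFit and eBayes with trend) on the log2 of the normalized count plus 1. It took genes whose mean over the compared libraries was at least 10, was 2-sided, and was adjusted by Benjamini-Hochberg over all of them. With 4 libraries against 4, exact permutation tests cannot go below 0.0286. P values measure the spread between these libraries. The members and lists were chosen with earlier results of these data known. By the naming rule, the members, *Dnmt3a*, *Il7r*, *Klf3*, *Foxo3*, *S1pr5* and *Spns2* are named, with up to 4 genes of each list by smallest adjusted p and the 3 genes most like each member. *Klf11*, *Mfsd2b*, the marker genes and the list genes of the subset comparisons were named after their values were seen. Listed genes without a row, such as *Foxo4*, and the methylation assays were not analysed here. Some genes that the rule would name are not reported here. Other settings were tried for the pseudocount (10), the filter (none, or 50), the scaling (quantiles, or a common 75th percentile), the trend (none), the tool (edgeR 4.0.16 and DESeq2 1.42.0 on whole reads), the libraries fitted (all 20, or 1 fewer) and a block by animal.

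Equal numbers deviated alike within a genotype, with r across genes of 0.412 to 0.498 for KO CD4+ and CD8+, 0.271 to 0.457 for KO CD4+ and DP, 0.338 to 0.539 for KO CD8+ and DP, and 0.120 to 0.196 for WT libraries, so these numbers were taken to pair the subsets. Between genotypes, r for shared numbers was -0.0024 to 0.099, and they were not taken as pairs. The fits were tested on simulated data. No 2 libraries of a group were duplicates (lowest chi-square per degree of freedom 11.0).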

Additional observations from a re-analysis of the deposited data

How the results depend on the processing

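For the 7 genes, 475 of the fits under other settings kept direction and side of the threshold, 27 lost a call, 8 gained a call and 8 changed sign. With single libraries left out, these counts were 379, 38, 2 and 29. None of the values that changed sign was past the threshold.

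Between KO and WT CD4+ cells, the number of genes called (2274) was 1403 without the trend and 1304 in the joint fit, and the number of members called (4) was 2 and 1. In CD8+ cells the joint fit called 2017 genes in place of 3118. A block by shared number, which did not pair the genotypes, left 26 and 89 genes and 0 members in CD4+ and CD8+ cells, with only 2 numbers shared. Under that block the log2 fold change of *Ccr7* was -0.38 and -0.26, and that of *Itga1* in CD4+ cells -0.092.

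Between DP and KO CD8+ cells, DESeq2 called 3 genes in place of 1. Between DP and KO CD4+ cells (237 genes, 2 members), the count of genes was 124 without the trend, 728 with DESeq2, 1459 in the joint fit, 860 with the animal as a block and 93 without animal 3, and the count of members was 1 without the trend and 1 without animal 3. Between WT CD4+ and CD8+ cells the joint fit called 1610 genes in place of 5592. Between KO CD4+ and CD8+ cells (514 genes, 3 members), the count of genes was 299 without the trend, 956 with DESeq2, 885 in the joint fit, 2305 with the block and 122 without animal 3, and no member passed without the trend (0) or without animal 3 (0). The interaction (2 genes) gave 7 genes with no filter, 0 without the trend, 1 with edgeR, 21 with DESeq2, 1 in the joint fit, 173 with the block and 4 without animal 3. The causes were not tested. Apart from *Cd44* between DP and KO CD4+ cells, the block changed no call of a member between subsets.

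The sign changed for *S1pr4* between DP and CD8+ cells under a common 75th percentile (0.010), between DP and CD4+ cells under quantile normalization (-0.043) and without animal 3 (-0.0028), and between KO CD4+ and CD8+ cells under quantile normalization (0.024). For *Klf2* it changed without animal 3 between KO CD4+ and CD8+ cells (-0.023) and in the interaction (-0.070).

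With each library left out in turn, genes called ranged from 628 to 2963 and members from 1 to 5 for CD4+ cells, from 1633 to 4092 and 3 to 5 for CD8+ cells, from 84 to 279 and 1 to 2 for DP against CD4+ cells, from 233 to 486 and 0 to 3 for KO CD4+ against CD8+ cells, and from 0 to 5 genes for the interaction. Log2 differences that changed sign ranged, between KO and WT CD4+ cells, from -0.016 to 0.53 for *Ccr7*, -0.098 to 0.042 for *Cd44*, -0.18 to 0.010 for *Klf10* and -0.12 to 0.21 for *Itga1*. Between DP and CD8+ cells they ranged from -0.52 to 0.030 for *Klf2*, -0.16 to 0.14 for *S1pr4* and -0.27 to 0.20 for *Cd69*, and between DP and CD4+ cells from -0.12 to 0.17 for *S1pr4*. Between KO CD4+ and CD8+ cells they ranged from -0.15 to 0.038 for *Foxo1*, -0.15 to 0.32 for *Klf2*, -0.033 to 0.43 for *S1pr1* and -0.18 to 0.10 for *S1pr4*, and in the interaction from -0.20 to 0.28 for *Klf2* and -0.24 to 0.040 for *S1pr4*.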
